A study of Mus musculus with 27 samples.

Results

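The mitochondrial carriers of solute carrier family 25 were followed in liver as the 46 genes whose single symbol begins with Slc25a, out of 18820 genes measured with 1 symbol. Family members under other symbols were not counted. Where a gene had several transcript clusters, which are the probe groups of the array that stand for 1 transcript unit, the cluster with the highest mean was used. Of the 46, 42 passed a filter on low and on hardly varying values and entered the tests, beside 13993 genes in all. Liver RNA came from 27 C57BL/6J mice, all male and sacrificed at 28 months of age, and each RNA was hybridised to 1 array, so that a mouse is the replicate throughout. The C mice (n = 8) had eaten the control diet, AIN-93W, ad libitum since the age of 9 weeks, and the CR mice (n = 5) had been calorie restricted by 30% over the same time. The MF mice (n = 7) had eaten a medium-fat diet with 25% of its energy from fat, and the CR-MF mice (n = 7) had been on CR until 24 months of age and on MF for the last 4 months. Before sacrifice all mice were fasted for 4 h, given carboxymethylcellulose by gavage and fasted for 6 h more, and the CR mice alone received a share of their daily portion shortly before the first fast, so that the diet and this last feeding cannot be told apart in CR. Values are deposited log2 intensities, so that a difference of 1 is a 2-fold change. The lowest and highest array medians were 5.38 and 5.48. None of 5 hepatocyte markers was at or under the detection threshold throughout, and their mean level lay between 13.22 and 13.44 in CR, 13.11 and 13.21 in MF, 13.17 and 13.26 in C and 13.14 and 13.34 in CR-MF.

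Carriers of this family sit mainly in the inner mitochondrial membrane, which is closed to charged metabolites, and each exchanges or imports a small set of them between cytosol and matrix. In hepatocytes they carry the traffic of several pathways that are split between both compartments, among them gluconeogenesis, the urea cycle, fatty acid synthesis from exported citrate, fatty acid oxidation and heme synthesis. A few members work elsewhere, such as Slc25a17 in peroxisomes and Slc25a46 in the outer mitochondrial membrane.

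The promoters of 2 members are shown because Slc25a25 was the carrier with the largest differences between the diet groups among those tested, and because Slc25a36 was the only other member whose window held the same palindrome. Windows reach from 250 bases before to 50 bases after a RefSeq transcript start (GRCm38.p6) and were found for 36 of the 46 members. Capitals mark the cAMP response element TGACGTCA, a palindrome bound by CREB in many genes that respond to fasting hormones, and in Slc25a36 also the E-box CACGTG. The Slc25a25 window lies at chr2:32424017-32424316 on the minus strand, with the palindrome beginning 150 bases before the start. It is 1 of 3 windows of that gene, and the other 2 held none of the motifs searched. The Slc25a36 window lies at chr9:97110992-97111291 on the minus strand, with the palindrome 161 and the E-box 187 bases before the start.
Slc25a25: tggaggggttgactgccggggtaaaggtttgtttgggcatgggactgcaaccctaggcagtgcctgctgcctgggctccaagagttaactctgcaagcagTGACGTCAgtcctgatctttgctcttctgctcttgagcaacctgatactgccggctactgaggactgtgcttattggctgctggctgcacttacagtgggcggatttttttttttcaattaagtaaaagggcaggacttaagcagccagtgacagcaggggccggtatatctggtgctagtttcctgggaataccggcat
Slc25a36: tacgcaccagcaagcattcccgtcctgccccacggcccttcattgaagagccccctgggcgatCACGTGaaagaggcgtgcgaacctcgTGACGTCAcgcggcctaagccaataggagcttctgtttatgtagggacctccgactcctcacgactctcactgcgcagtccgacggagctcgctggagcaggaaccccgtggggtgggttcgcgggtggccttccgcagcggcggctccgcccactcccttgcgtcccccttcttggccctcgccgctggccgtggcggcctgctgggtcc
The palindrome was found in 2 of the 36 members with a window (5.56%) and in 549 of 27025 genes (2.03%). Its shorter core TGACG, which every such palindrome also holds on both strands, was found in 12 members (33.3%, against 23.0% of these 27025 genes). The E-box was present in 7 members (19.4%, against 8.09%), the NRF1 core GCGCATGC in 2 (5.56%, against 3.05%) and the ERR element TCAAGGTCA in 0 (against 0.466%). Both strands were searched, and a gene counted if any of its windows held the motif. The 27025 genes are those with a window, not the genes tested on the array, and numbers of windows were not matched. A match is a description of these letters, and the array does not tell the 3 Slc25a25 starts apart.

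Between lifelong MF and lifelong CR, 4 of the 42 tested carriers were lower in MF and 0 were higher (adjusted p under 0.05 over all 13993 genes, limma), where 2.62% of all genes were called lower and 2.8% higher. These 4 were the ATP-Mg/phosphate carriers Slc25a25 and Slc25a23, the glutamate carrier Slc25a22 and the branched-chain amino acid carrier Slc25a44. At an unadjusted p under 0.05, 13 were lower and 3 higher, where 11.2% of all genes were lower and 12.5% higher. The mean level of the 5 hepatocyte markers also differed between these groups, with every CR mouse above every MF mouse (means of 13.30 and 13.18). Only 2 of the 5 passed the filter into the tests. Tat, a tyrosine-degrading enzyme, was lower in MF (-0.46, SE 0.11, adjusted p = 0.0150), and Serpina1c differed by 0.00. The others were not tested, so the mean level cannot show whether they share the difference. The part of these markers in the carrier values was not tested. In bulk liver, fewer cells of a type and less RNA per cell cannot be told apart. The median difference of the carriers was -0.15 on the log2 scale, against -0.01 over all genes tested, and 34 of the 42 (81.0%) had a lower mean in MF than in CR, against 51.4% of all genes. CR had the highest mean of the 4 groups in 26 carriers, which was so for 35.0% of all genes, and MF had the lowest mean in 21, against 25.5%.

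The switch from CR to MF at old age was read in the same way. CR-MF was lower than CR in 1 carrier, Slc25a25 (0.364% of all genes were called lower), and higher in 0 (0.236%), with 6 lower and 0 higher at an unadjusted p under 0.05 (6.9% and 5.4% of all genes). CR-MF against MF gave 0 calls in either direction (0.55% of all genes were higher and 0.893% lower), with 4 higher and 1 lower at an unadjusted p under 0.05 (6.76% and 7.99%). CR against C gave 1 higher, again Slc25a25 (0.765%), and 0 lower (0.808%), with 7 higher and 3 lower before adjustment (9.27% and 10.5%). CR-MF against C gave 0 calls (0.136% higher, 0.164% lower), with 1 higher and 1 lower before adjustment (5.52% and 5.9%). MF against C gave 0 calls, where 0% of all genes were called in either direction, with 0 higher and 1 lower before adjustment (2.67% and 1.3%). The test of any difference among the 4 groups called 1 carrier, Slc25a25 (3.62% of all genes). The median carrier differed by -0.09 between CR-MF and CR, 0.08 between CR-MF and MF, 0.09 between CR and C, 0.01 between CR-MF and C and -0.08 between MF and C, where the medians over all genes were between 0.00 and 0.02. These contrasts share arrays, the 5 CR arrays above all, so that they are not independent of each other.

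**Figure D1:**
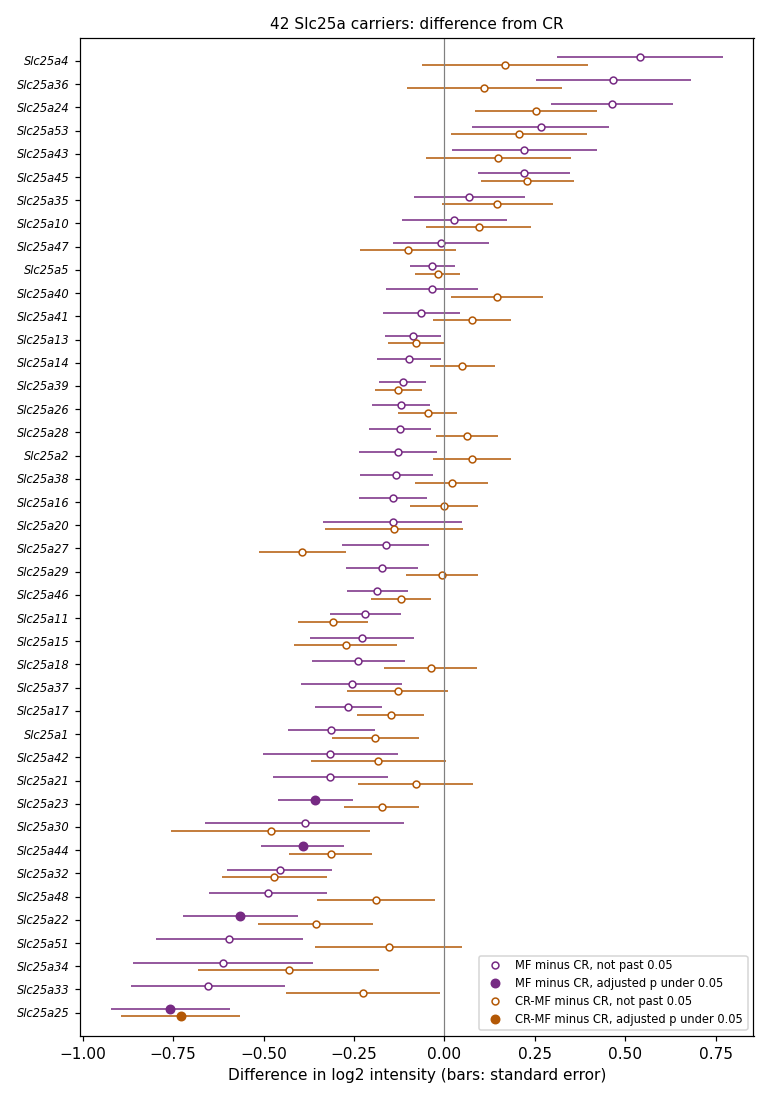
Difference in log2 intensity of each of the 42 tested carriers when MF or CR-MF is set against CR, with standard errors as bars, filled where the adjusted p is under 0.05. The points lie mostly to the left of 0 for MF minus CR, and Slc25a25 is the only carrier filled for both differences.

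Among the carriers of adenine nucleotides, the ATP-Mg/phosphate carriers move ATP and ADP in or out of the matrix and so set the size of the matrix pool, most of them under control of cytosolic calcium. Slc25a25 (SCaMC-2) is such a carrier. Its log2 intensities in the CR mice were 9.24, 9.62, 9.85, 10.18 and 10.19. In C they had a lowest value of 8.44, a median of 9.03 and a highest of 9.32, in CR-MF 8.69, 9.04 and 9.72, and in MF 8.92, 9.03 and 9.26. The 4 CR mice other than B4_5 lay above every C and MF mouse, and B4_5 lay inside the range of both. Among the CR-MF mice BC4_15 lay above 2 CR mice and BC4_3 above 1. Slc25a25 was 1.69-fold lower in MF than in CR (-0.76, SE 0.16, adjusted p = 0.00999), 1.66-fold lower after the switch (CR-MF minus CR -0.73, SE 0.16, adjusted p = 0.0367) and 1.80-fold higher in CR than in C (0.84, SE 0.16, adjusted p = 0.0108). Against C it differed by 0.12 in CR-MF (95% interval of the difference, -0.18 to 0.42) and by 0.09 in MF (-0.21 to 0.39), and neither passed the test. Leaving out B4_1, B4_3, B4_7, BC4_1, BC4_9, BC4_11 or BC4_13 in turn ended the call between CR-MF and CR, with adjusted p up to 0.134, while no single mouse ended the calls of MF or C against CR.

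Slc25a23 (SCaMC-3), which is expressed in liver and answers to calcium, lay at 11.23, 11.32, 11.39, 11.52 and 11.56 in the CR mice. In MF it had a lowest value of 10.77, a median of 11.08 and a highest of 11.23. The 2 groups did not overlap, although the lowest CR mouse (B4_5) and the highest MF mouse (C4_13) shared a value of 11.23 after rounding. It was 1.28-fold lower in MF (-0.36, SE 0.10, adjusted p = 0.0414), a call that ended when B4_1, B4_3, B4_7, B4_13, C4_1, C4_5, C4_7, C4_9 or C4_11 was left out (adjusted p up to 0.106). C spanned 10.63 to 11.45 and CR-MF 10.99 to 11.33, and both overlapped with CR, with a CR-MF minus CR difference of -0.17 (adjusted p = 0.525).

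Slc25a24 (SCaMC-1), the carrier of this kind known best from proliferating cells, had the opposite order of means, lowest in CR. The CR mice lay at 5.15, 5.17, 5.31, 5.44 and 5.47, C had a lowest value of 5.34, a median of 5.83 and a highest of 6.37, and MF had 5.36, 5.84 and 6.06. All of these ranges overlapped, and neither the difference of CR from C (-0.53, SE 0.16, adjusted p = 0.0770) nor that of MF from CR (0.46, SE 0.17, adjusted p = 0.0988) passed the test. The first of them passed when A4_1 or BC4_11 was left out. Slc25a41, a relative without the calcium-binding part, was dim, above the intensity of 20 on 26 of 27 arrays, and its group means were between 4.61 and 4.78.

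Of the ADP/ATP carriers, which exchange matrix ATP for cytosolic ADP, Slc25a5 (ANT2) had group means between 12.59 and 12.63, and Slc25a4 (ANT1), the form of heart and muscle, was 6.12 ± 0.09 (SD) in CR, 6.29 ± 0.50 in CR-MF, 6.57 ± 0.41 in C and 6.66 ± 0.46 in MF (MF minus CR 0.54, SE 0.23, adjusted p = 0.153). For Slc25a5, MF minus CR was -0.03 on the cluster used and -0.04 on both of its other clusters. This gene has many near-identical copies in the genome, and the array may not separate them. Over the adenine nucleotide list, 8 genes were measured and 6 tested, 2 were called lower in MF than in CR (2.62% of all genes), and the median difference was -0.05.

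**Figure D2:**
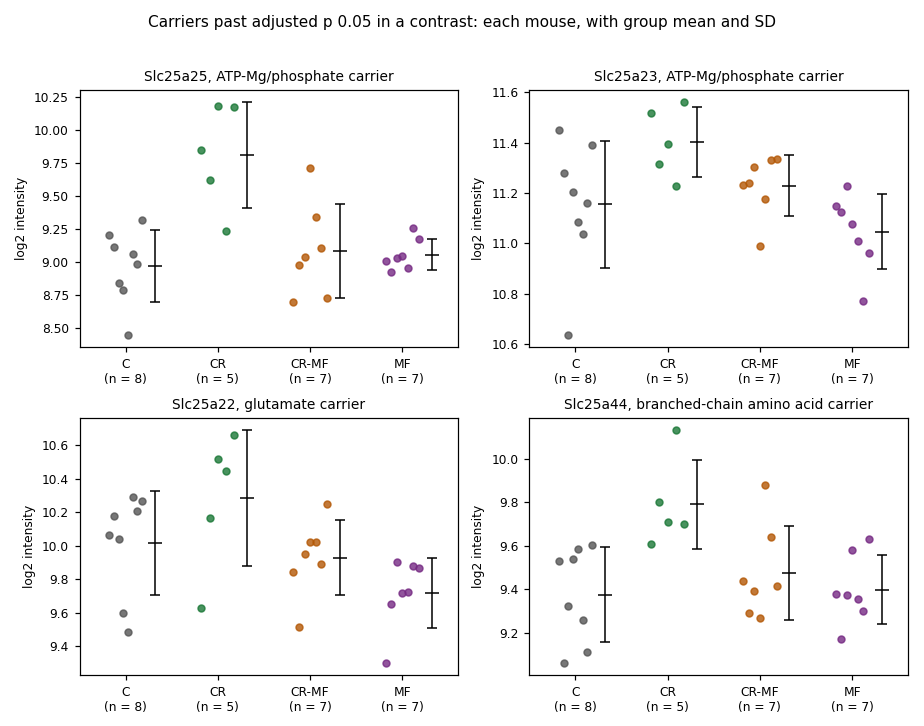
Log2 intensity of Slc25a25, Slc25a23, Slc25a22 and Slc25a44 in each mouse by diet group, with the group mean and SD beside the points. In each panel CR has the highest mean, from 9.79 for Slc25a44 to 11.40 for Slc25a23, and the largest gap is that of Slc25a25.

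Of the 10 amino acid carriers, 9 were tested, 2 were lower in MF than in CR, 9 of 9 had a lower mean in MF and 9 of 9 a higher mean in CR than in C, with median differences of -0.17 and 0.10. Slc25a22, the carrier that brings glutamate into the matrix with a proton, was at 9.63, 10.17, 10.45, 10.52 and 10.66 in CR and had a lowest value of 9.30, a median of 9.72 and a highest of 9.90 in MF. Only the CR mouse B4_1 lay within the MF range, and the MF mouse C4_1 lay well below the other 6. It was 1.48-fold lower in MF (-0.56, SE 0.16, adjusted p = 0.0380), a call that ended when B4_3, B4_5, B4_7, B4_13, C4_1, C4_5 or C4_11 was left out (adjusted p up to 0.102). C (9.48 to 10.29) and CR-MF (9.51 to 10.25) lay between, and CR-MF minus CR was -0.36 (adjusted p = 0.351).

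Slc25a44, which imports leucine, isoleucine and valine and is best known from brown fat, was at 9.61, 9.70, 9.71, 9.80 and 10.13 in CR. MF had a lowest value of 9.17, a median of 9.37 and a highest of 9.63, and C had 9.06, 9.43 and 9.60. The lowest CR mouse, B4_1, lay just above the highest C mouse, A4_9, so that these groups did not overlap, and just below the highest MF mouse, C4_9. It was 1.31-fold lower in MF than in CR (-0.39, SE 0.11, adjusted p = 0.0421), and CR was 1.33-fold above C (0.41, SE 0.11, adjusted p = 0.0533), which did not pass but did when A4_1, A4_9, A4_19, A4_21, BC4_3, BC4_11, BC4_15 or C4_11 was left out. The first of these calls ended when B4_1, B4_3, B4_5, B4_7, B4_13, C4_1, C4_5, C4_7 or C4_11 was left out (adjusted p up to 0.111). CR-MF spanned 9.27 to 9.88, with BC4_3 highest (CR-MF minus CR -0.31, adjusted p = 0.219).

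The other amino acid carriers gave no call. Slc25a13 (citrin), the aspartate/glutamate carrier of liver that serves the malate-aspartate shuttle and feeds the urea cycle, had group means between 10.97 and 11.07 (MF minus CR -0.09, 95% interval -0.25 to 0.07). Slc25a15, the ornithine carrier of the urea cycle, was 10.50 ± 0.23 (SD) in CR, 10.23 ± 0.21 in CR-MF, 10.27 ± 0.20 in MF and 10.41 ± 0.33 in C, with CR-MF minus CR at -0.27 (adjusted p = 0.450). Slc25a38, which brings in glycine for heme synthesis, Slc25a26, which imports S-adenosylmethionine, and Slc25a29, which carries basic amino acids, differed from CR in MF by -0.13, -0.12 and -0.17, none past the threshold. Slc25a2, a further ornithine carrier, and Slc25a18, a further glutamate carrier, were close to the detection threshold, with overall means of 4.77 and 4.32, and Slc25a18 was above it on 15 of 27 arrays. Slc25a2 was among the 4 carriers with the smallest p between CR-MF and C (0.21, SE 0.10, adjusted p = 0.402), as was Slc25a29 (0.17, SE 0.09, adjusted p = 0.484).

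Of 8 listed carriers of cofactors and nucleotides, 7 were measured and tested, and none was called in any contrast. In 6 of 7 the mean was lower in MF than in CR, against 51.4% of all genes, with a median difference of -0.32. Slc25a32, which is required for folate and FAD supply of the matrix, lay at 8.77, 8.90, 9.19, 9.28 and 9.52 in CR. It had a lowest value of 8.32, a median of 8.62 and a highest of 9.05 in MF and 8.29, 8.61 and 9.03 in CR-MF. All groups overlapped. The difference from CR was -0.45 in MF (SE 0.15, adjusted p = 0.0622) and -0.47 in CR-MF (SE 0.15, adjusted p = 0.148), and CR was 0.39 above C (SE 0.14, adjusted p = 0.131).

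Slc25a33 and Slc25a36 both carry pyrimidine nucleotides, which the matrix needs for its own RNA and DNA, and their group means ran in opposite orders. Slc25a33 was at 6.77, 7.58, 7.71, 8.26 and 8.65 in CR, the widest spread of any group in that gene, and had a lowest value of 6.76, a median of 7.05 and a highest of 7.48 in MF (-0.65, SE 0.21, adjusted p = 0.0689). The CR mouse B4_5 lay at the bottom of the MF range and the other 4 above its top. Slc25a36 was 6.92 ± 0.13 (SD) in CR, 7.03 ± 0.48 in CR-MF, 7.35 ± 0.43 in C and 7.39 ± 0.35 in MF (MF minus CR 0.47, adjusted p = 0.186). Its second transcript cluster had the same direction (0.33).

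Slc25a51, the mammalian mitochondrial NAD carrier, was at 9.44, 9.59, 10.05, 10.10 and 10.59 in CR. It had a lowest value of 8.89, a median of 9.19 and a highest of 9.88 in MF and 9.46, 9.62 and 10.65 in CR-MF, where BC4_15 stood well above the next mouse, at 9.97. The difference was -0.60 between MF and CR (SE 0.20, adjusted p = 0.0813) and 0.44 between CR-MF and MF (SE 0.19, adjusted p = 0.254), the latter with the smallest p of the 42 carriers in that contrast. Slc25a17, the peroxisomal carrier of CoA, FAD and NAD, differed by -0.27 between MF and CR (adjusted p = 0.0850), and the coenzyme A carrier Slc25a42 and the related Slc25a16 by -0.32 and -0.14.

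**Figure D3:**
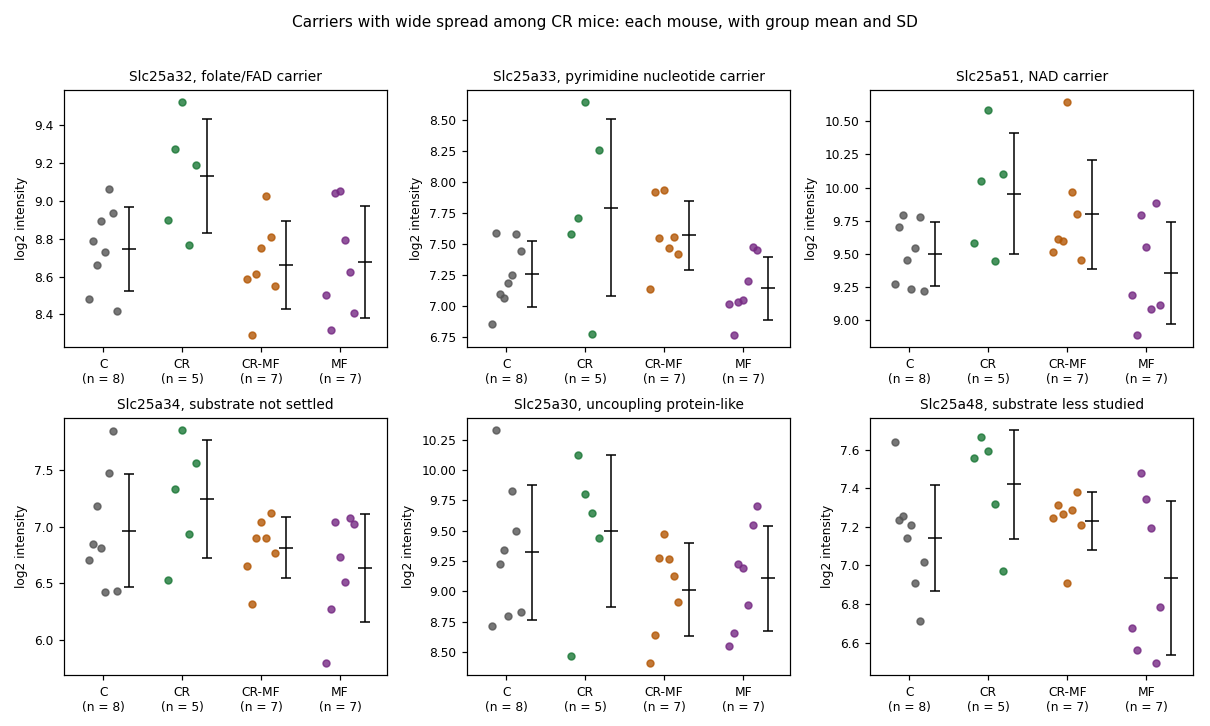
Log2 intensity of 6 carriers that gave no call, in each mouse by diet group with mean and SD. Their SD among the CR mice ran from 0.28 for Slc25a48 to 0.72 for Slc25a33. The called carriers Slc25a22 and Slc25a25, not shown here, had 0.41 and 0.40. For Slc25a33 the CR mice run from 6.77 to 8.65, while the MF mice lie between 6.76 and 7.48.

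Of the 6 carboxylate carriers none was called, and 4 of 6 had a lower mean in MF than in CR, against 51.4% of all genes. Slc25a1, the citrate carrier that exports the carbon for fatty acid synthesis, was at 11.59, 11.60, 11.67, 11.70 and 11.85 in CR. It had a lowest value of 10.68, a median of 11.41 and a highest of 11.64 in MF (-0.31, SE 0.12, adjusted p = 0.118), where C4_9 was the lowest mouse and the next lay at 11.32. Slc25a11, the oxoglutarate/malate carrier of the malate-aspartate shuttle, was lowest in CR-MF, with a lowest value of 10.39, a median of 10.72 and a highest of 10.82, against 10.76, 10.94, 11.03, 11.05 and 11.18 in CR. Only the CR mouse B4_7 lay within the CR-MF range, and the difference of -0.31 (SE 0.10, adjusted p = 0.157) did not pass. CR-MF minus C for this gene was -0.21 (adjusted p = 0.357), the smallest p of the carriers in that contrast. The dicarboxylate carrier Slc25a10 differed by 0.03 and the oxodicarboxylate carrier Slc25a21 by -0.32 between MF and CR, and Slc25a34 and Slc25a35, whose substrates are not settled, by -0.61 (SE 0.25, adjusted p = 0.137) and 0.07. Slc25a20, the carnitine/acylcarnitine carrier through which long-chain fatty acids reach beta-oxidation, had group means between 10.50 and 10.64, and MF minus CR was -0.14 (95% interval -0.54 to 0.25).

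The carriers of glutathione and iron, the uncoupling-like carriers, Slc25a46 and the less studied members gave no call. The glutathione carriers Slc25a39 and Slc25a40 differed by -0.12 and -0.03 between MF and CR, and the other cluster of Slc25a40 gave 0.07. The iron importers of the matrix, Slc25a37 (mitoferrin-1) and Slc25a28 (mitoferrin-2), differed by -0.26 and -0.12, and Slc25a28 by 0.18 between CR-MF and MF (SE 0.08, adjusted p = 0.257). Slc25a27 (UCP4), an uncoupling protein-like carrier known from brain, was at 5.73, 5.86, 5.94, 6.00 and 6.07 in CR and had a lowest value of 5.19, a median of 5.46 and a highest of 6.05 in CR-MF, where BC4_3 alone lay above 5.65 (-0.39, SE 0.12, adjusted p = 0.147). Without BC4_3 this difference passed the test (-0.48). Slc25a30 (KMCP1), known from kidney, had the largest spread within groups of the 42 carriers (SD 0.50), with CR values from 8.47 to 10.12, and Slc25a14 differed by -0.10 between MF and CR. Slc25a46, the outer membrane protein, differed by -0.19 between MF and CR (adjusted p = 0.177). Slc25a47, a carrier found mainly in liver, had group means between 11.85 and 11.98. Slc25a48 was -0.49 in MF against CR (SE 0.16, adjusted p = 0.0761). Slc25a45 was lowest in CR (CR minus C -0.33, SE 0.12, adjusted p = 0.137), and Slc25a43 and Slc25a53 were lowest there too, the latter above the detection threshold on 14 of 27 arrays only.

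**Figure D4:**
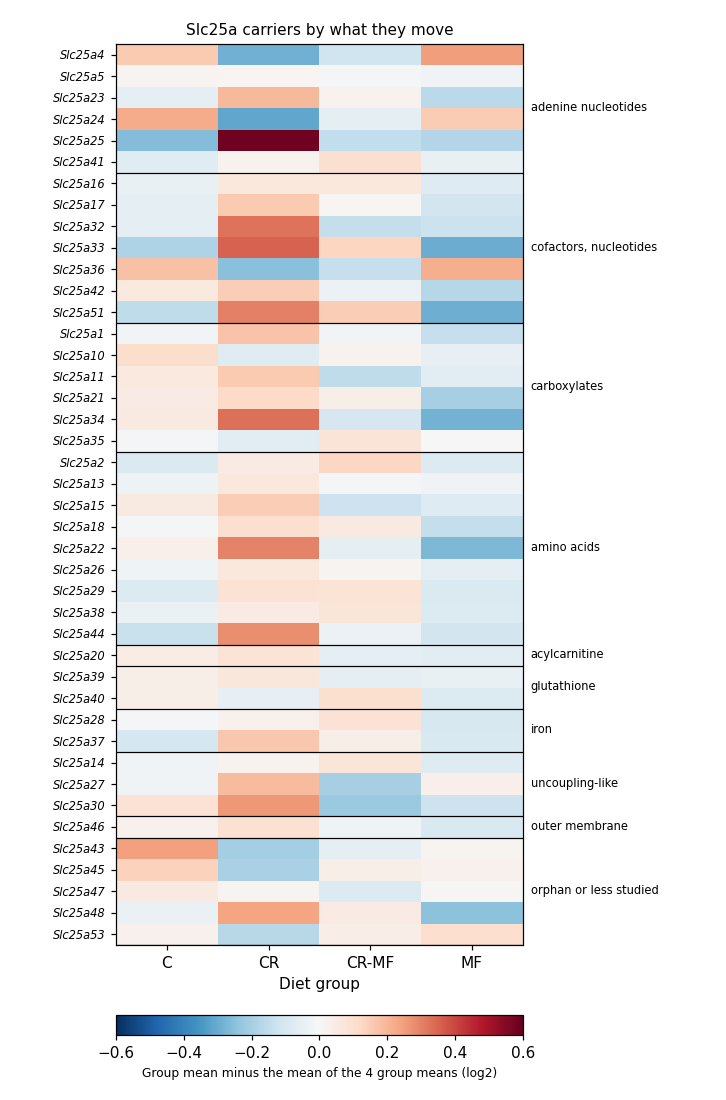
Mean of each diet group minus the mean of the 4 group means (log2) for the 42 tested carriers, arranged by what they move. Most rows are red in CR, most strongly Slc25a25. CR has the lowest mean in 8 of the 42 rows, those of Slc25a4, Slc25a10, Slc25a24, Slc25a35, Slc25a36, Slc25a43, Slc25a45 and Slc25a53.

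Between MF and C no carrier passed the test. The 4 with the smallest p were Slc25a22 (-0.30, SE 0.14), Slc25a21 (-0.25, SE 0.14), Slc25a46 (-0.12, SE 0.07) and Slc25a34 (-0.33, SE 0.22), all with an adjusted p of 1.00, and 31 of the 42 had a lower mean in MF than in C (73.8%, against 48.7% of all genes).

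Of the 46 members, 4 did not pass the filter. The phosphate carrier Slc25a3, which brings in the phosphate for ATP synthesis, and Slc25a12 (aralar), the aspartate/glutamate carrier of brain and muscle, were above the intensity of 20 on all 27 arrays with means of 11.52 and 9.27, but each had an interquartile range of 0.09, under the limit of 0.1. Slc25a3 was 11.57 ± 0.05 (SD) in CR, 11.48 ± 0.06 in CR-MF, 11.48 ± 0.11 in MF and 11.54 ± 0.07 in C. Slc25a31 (ANT4), known from testis, and Slc25a54 were under the threshold on all arrays, with means of 2.86 and 3.00.

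Differences were also read within plates and rows of wells. The array names carry a plate and a well code, read here as such, and by this reading plate G150 held 19 of the arrays while each group had a single mouse on G151 and another on G152. Within plates the MF minus CR difference of Slc25a25 was -0.68, -0.57 and -1.23 on G150, G151 and G152, and those of Slc25a22, Slc25a23 and Slc25a44 were negative on all 3 plates as well. With the plate as a block the call of Slc25a23 ended (-0.35, adjusted p = 0.0542), and on plate G150 alone none of the 4 passed (adjusted p between 0.119 and 0.212). Slc25a25 in CR-MF minus CR was -0.70, -0.28 and -1.21, and in CR minus C 0.88, 0.30 and 0.98, and the call of CR-MF against CR also ended with the plate as a block (adjusted p = 0.0521). By well row, all 7 CR-MF mice were in row H, so that CR-MF and its row cannot be told apart. Row G held the 7 MF mice and 2 CR mice (B4_3 and B4_13), and row F the 8 C mice and 3 CR mice. The 3 CR mice of row F were all on G150, while B4_13 was on G151 and B4_3 on G152. Row and plate thus split the CR mice alike and are not separate checks for them. Of the 7 MF mice in row G, 5 were on G150. Within row G, MF minus CR was -0.85 for Slc25a25, -0.62 for Slc25a22, -0.31 for Slc25a23 and -0.36 for Slc25a44. With the row as a block, in a fit without the CR-MF mice, none of the 4 kept its call (adjusted p between 0.0518 and 0.297). Since MF lay in row G only, this fit gives the same differences as row G alone and is not a separate reading. Calls of MF against CR also ended under quantile normalization (adjusted p = 0.0567 for Slc25a23 and 0.0546 for Slc25a44), without the filter (0.0503 and 0.0537) and with array weights (0.0547 for Slc25a22 and 0.0579 for Slc25a44). Within row F, CR minus C was 0.78 for Slc25a25 (adjusted p = 0.0670 with the row as a block) and 0.44 for Slc25a44. Over the 42 tested carriers, MF minus CR had the other sign on G150 alone for Slc25a10 (0.03 over all arrays, -0.09 on G150) and Slc25a47 (-0.01 and 0.05), and within row G for Slc25a10 (-0.01) and Slc25a41 (-0.06 over all arrays, 0.04 within the row).

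The CR mice of the 2 rows differed in some carriers more than in others. The 2 CR mice in row G were above the 3 in row F by 0.78 for Slc25a30, 0.64 for Slc25a33, 0.61 for Slc25a51, 0.59 for Slc25a34 and 0.45 for Slc25a32. The 4 called carriers differed between the rows by 0.15 (Slc25a25), 0.10 (Slc25a22), -0.08 (Slc25a23) and -0.06 (Slc25a44). These 4 were called on the same arrays, where a smaller spread among the CR mice favours a call. Their row differences are therefore no separate check of the calls. Within row F, CR minus C was 0.28 for Slc25a33, 0.21 for Slc25a51, 0.04 for Slc25a34 and 0.21 for Slc25a32, against 0.54, 0.45, 0.28 and 0.39 over all CR mice. The row of an array, its plate and the mouse on it cannot be told apart here, since row F of CR was all on G150 and row G was not.

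Several sets of markers of cells other than hepatocytes also had their lowest mean in CR. The mean level of 4 recruited-macrophage markers (of 5 listed) lay between 5.35 and 5.90 in CR, 5.98 and 7.93 in C, 5.34 and 7.41 in CR-MF and 6.29 and 7.16 in MF. Of these 4 genes 3 were called higher in MF than in CR (2.8% of all genes) and 2 lower in CR than in C (0.808%). The 5 markers of T and NK cells lay between 5.37 and 5.82 in CR, 5.43 and 7.20 in C, 5.60 and 7.78 in CR-MF and 5.51 and 7.69 in MF. Of these 5 genes 1 was called higher in MF than in CR, 1 lower in CR than in C and 1 lower in CR-MF than in MF (0.893% of all genes). No marker of either list was under the detection threshold on all arrays. The group mean was lowest in CR for markers of B and plasma cells (5.74, others 6.03 to 6.41), adipocytes (5.31, others 5.52 to 5.99) and stellate cells (7.18, others 7.25 to 7.52) too, but not in 4 other lists. For Kupffer cells it was 8.76 in CR and 8.60 in MF, for endothelial cells 8.89 in both CR and CR-MF, for cholangiocytes 5.67 in CR, between 5.59 in C and 5.85 in MF, with 5.55 in CR-MF, and for the 1 erythroid marker measured 8.64 in CR, 8.14 in C, 8.71 in MF and 9.03 in CR-MF. BC4_11 was the highest CR-MF mouse for recruited-macrophage, T and NK cell and stellate markers. It was also highest for Slc25a4 (7.21), Slc25a24 (6.19), Slc25a36 (7.91) and Slc25a43 (6.45). A4_1 was the lowest C mouse for the same lists and the same 4 carriers (5.84, 5.34, 6.55 and 5.19). For B and plasma cell markers BC4_15 (6.48) was highest in CR-MF, with BC4_11 at 5.98. The lowest C mouse there was A4_19 (5.53), with A4_1 at 5.77. For adipocyte markers A4_1 was lowest in C (5.21), but BC4_15 (6.25) was highest in CR-MF, with BC4_11 at 5.36. The arrays of BC4_11 and A4_1 were both on plate G152. These 4 carriers were picked from the 8 of 42 tested that had their lowest mean in CR, where 32.1% of all genes did. For Slc25a10, Slc25a35 and Slc25a45, also lowest in CR, BC4_11 lay below A4_1 (-0.40, -0.05 and -0.21). For Slc25a53, lowest in CR too, it lay above A4_1 (0.18). The part of these cells in the carrier values was not tested.

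**Figure D5:**
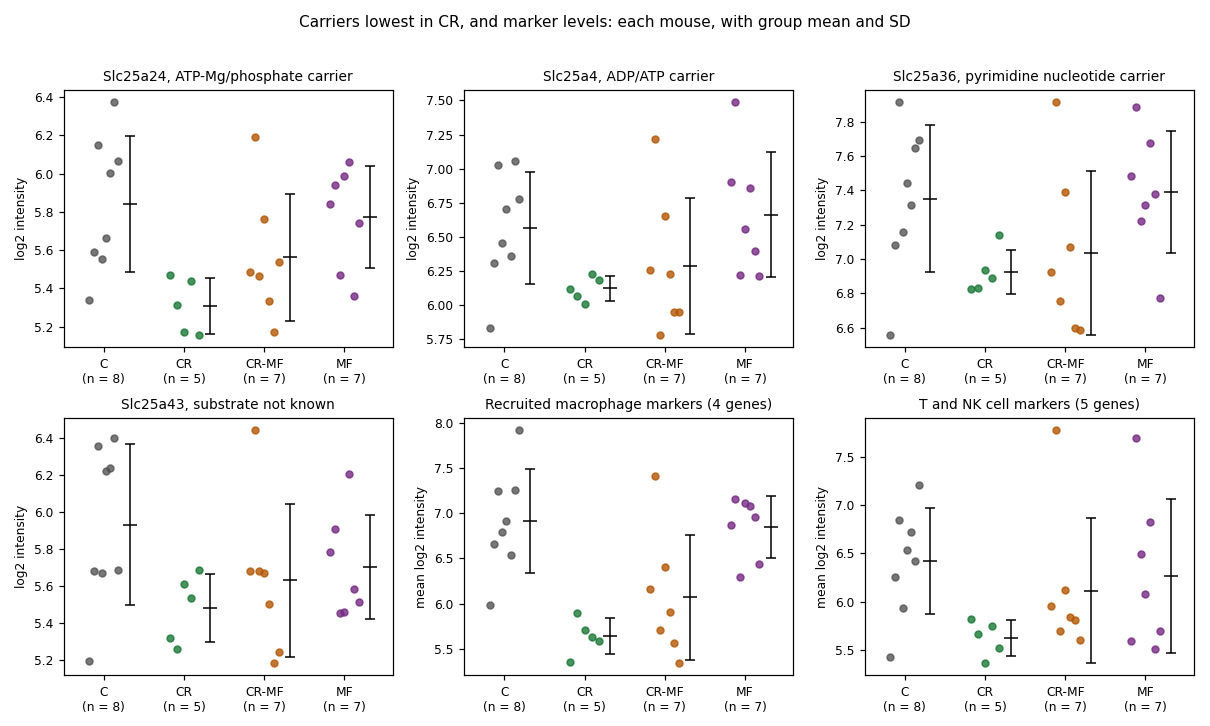
Log2 intensity of Slc25a24, Slc25a4, Slc25a36 and Slc25a43 in each mouse, above or beside the mean log2 intensity of 4 recruited-macrophage and 5 T and NK cell markers, by diet group with mean and SD. In each panel the CR mice sit low and close together, and the highest CR-MF point is the same mouse, BC4_11. The carriers shown were picked from the 8 tested carriers with their lowest mean in CR, and the marker lists from those with their lowest mean in CR.

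Genes that work with the carriers were listed by role. Of all genes, 2.62% were called lower in MF than in CR and 0.364% lower in CR-MF than in CR. Other normalizations, filters, plate and row blocks and left-out mice were read for the carriers only, not for these genes or the enzymes below. Of 16 tested proteins of other mitochondrial transport, 2 were lower in MF than in CR. Mtch2 (-0.40, SE 0.10, adjusted p = 0.0219) is a carrier-like protein of the outer membrane that the symbol rule left out of the members. Abcb8 (-0.29, SE 0.07, adjusted p = 0.0209) is an ABC transporter of the inner membrane. The mitochondrial pyruvate carrier subunit Mpc1 (-0.19), Vdac1 (-0.16) and the calcium uniporter Mcu (-0.08) did not pass. Of 10 genes of the import route that inserts carriers into the inner membrane, the small chaperone Timm9 was lower in MF (-0.62, SE 0.17, adjusted p = 0.0382), and Timm22, the core of the insertion complex, was lower in CR-MF (-0.32, SE 0.07, adjusted p = 0.0446), with -0.22 in MF (adjusted p = 0.0832). The median of this list was -0.15 for MF minus CR.

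Enzymes that share metabolites with a carrier gave calls for some routes, to be read beside the same shares of all genes. Of 5 genes around exported citrate, the fatty acid synthesis enzymes Fasn (-1.11, SE 0.30, adjusted p = 0.0284) and Acaca (-0.66, SE 0.18, adjusted p = 0.0368) were lower in MF than in CR, Acaca was also lower in CR-MF (-0.82, SE 0.18, adjusted p = 0.0342), and Acly, which splits the citrate that Slc25a1 exports, was -0.94 (SE 0.31, adjusted p = 0.0680). Of 4 malate-aspartate shuttle enzymes, cytosolic Got1 was lower in MF (-0.72, SE 0.17, adjusted p = 0.0144) and in CR-MF (-0.70, SE 0.17, adjusted p = 0.0467), beside -0.22 and -0.31 for the shuttle carrier Slc25a11. Of 4 tested urea cycle enzymes, Cps1, the matrix entry step, was lower in MF (-0.29, SE 0.08, adjusted p = 0.0287). Of 7 tested heme synthesis enzymes, Fech, which inserts the iron into heme, was lower in MF (-0.39, SE 0.07, adjusted p = 0.00315). Of 7 tested fatty acid oxidation genes around the acylcarnitine route none was called, with Cpt2 at 0.01, Acadl at -0.22 and a list median of -0.03 for MF minus CR.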

How the data were processed

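Affymetrix Mouse Gene 1.1 ST arrays were hybridised with liver RNA, 27 arrays in all. The authors deposited log2 intensities from RMA, which corrects background, normalizes quantiles and summarises probes, so depth has no meaning here and the number of mice limits the precision. Of 35556 transcript clusters, 21218 had 1 gene symbol in the platform table, giving 18820 genes by the highest mean. Genes above an intensity of 20 on at least 5 arrays with an interquartile range over 0.1 were kept. Limma (version 3.58.1, R 4.3.3, intensity trend) was fitted to the 4 groups with 23 residual degrees of freedom, and p-values were adjusted by Benjamini-Hochberg over all 13993 genes. The fit was tested on simulated data. Named carriers are those past an adjusted p of 0.05 and the 4 with the smallest p in each contrast, beside members described by role. Members and lists were chosen with earlier results of these data known. Alternatives changed normalization, filter, moderation, array weights, clusters, blocks and mice. Each array was taken as a separate animal by the mouse number in its label.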

Additional observations from a re-analysis of the deposited data

Results flagged for a closer look

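Among 168 sets of values, 1 for each tested carrier in each diet group, 13 held a mouse that stood apart from the rest of its group by Dixon's criterion, where chance gives about 1 in 20. BC4_15, a CR-MF mouse, was this mouse for 3 carriers, lowest for Slc25a35 (5.26) and Slc25a48 (6.91) and highest for the NAD carrier Slc25a51 (10.65). In CR-MF, BC4_3 was highest for Slc25a5 (12.77), BC4_5 for Slc25a29 (5.57) and BC4_11 for Slc25a43 (6.45). In MF, C4_9 was lowest for the citrate carrier Slc25a1 (10.68), C4_1 for the glutamate carrier Slc25a22 (9.30) and C4_7 for Slc25a35 (5.20), and C4_15 was highest for Slc25a14 (5.10). In CR, B4_5 was lowest for the glycine carrier Slc25a38 (8.29) and B4_1 for the coenzyme A carrier Slc25a42 (9.91). In C, A4_19 was highest for Slc25a29 (5.42).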

How the results depend on the processing

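None of the alternatives turned the direction of the 24 carrier differences run under them, which are the called ones and those with the smallest p in each contrast. The count of carriers called between MF and CR, 4 as reported, was 2 under quantile normalization, without the filter and with only the arrays compared, and 0 on plate G150 alone or when rows of wells were the block. Between CR-MF and CR the 1 call became 0 with the plate as a block, on plate G150 alone, with only the arrays compared and with the replicate block. Between CR and C the 1 call became 2 with median centring or the stricter filter, 4 with array weights and 0 on plate G150 alone, within well rows and with the replicate block. The test of any difference, 1 as reported, called 3 with array weights, 0 on plate G150 alone and 2 with the replicate block. Whether the replicate numbers pair the mice was not settled, since same-numbered pairs were not compared with other pairs. Of 27 same-numbered pairs, 13 deviated together with r over 0.1 (median 0.09, range -0.25 to 0.36). With the replicate block 3 carriers were called between MF and CR, and the call of Slc25a44 ended (adjusted p = 0.128). Leaving out 1 mouse at a time gave 1 to 8 calls for MF against CR (1 without B4_3, B4_13, C4_1, C4_5 or C4_11, 2 without B4_7 or C4_7 and 8 without C4_13), 0 to 2 for CR-MF against CR (0 without B4_1, B4_3, B4_7, BC4_1, BC4_9, BC4_11 or BC4_13 and 2 without BC4_3), 1 to 3 for CR against C (3 without A4_1 or BC4_11, and 2 without A4_9, A4_19, A4_21, B4_5, BC4_3, BC4_15 or C4_11) and 0 to 2 for any difference (0 without B4_3, and 2 without B4_1, B4_5 or BC4_3). The causes of these changes were not tested. Each contrast with a called carrier rests on the 5 CR mice.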
